A study of Mus musculus with 4 samples.

Results

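Open chromatin around 8 effector genes of alternative macrophage activation (Arg1, Tgm2, Retnla, Chil3, Mrc1, Clec10a, Mgl2 and Pdcd1lg2) was examined by ATAC-seq in mouse bone marrow-derived macrophages (BMDMs). In ATAC-seq the Tn5 transposase inserts adapters into accessible DNA, so that accessible sites appear as peaks. The wild-type cells came from C57BL/6 mice of 8 to 12 weeks, and both groups were differentiated with L929 supernatant, which supplies M-CSF. The control group (2 libraries) received nothing further, and the IL-4 group (2 libraries) was given 20 ng/ml of IL-4 for 1 h. The methods describe biological duplicates, and no source says which libraries share an animal, so p-values measure only the spread between these libraries. The peaks of the 4 libraries were merged wherever they overlapped by at least 1 bp, each merged region took the gene name deposited with its highest peak, and the regions that carried the name of 1 of the 8 genes were taken. The rule gave 39 of the 60710 regions and covered 7 of the 8 genes, since no region carried the name of Chil3. The older symbol of that gene, Chi3l3, was not searched.

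IL-4 binds its receptor on the macrophage surface and leads to phosphorylation of the transcription factor STAT6, which enters the nucleus as a dimer and binds palindromic elements in which TTC and GAA are separated by 4 bases. The resulting alternative polarization is known for enzymes of arginine and protein cross-linking chemistry, for secreted chitinase-like and resistin-like proteins, for lectin receptors and for an inhibitory ligand of T cells. Arg1 encodes arginase 1, which hydrolyses arginine to ornithine and urea, and Tgm2 encodes transglutaminase 2, which cross-links proteins. Retnla and Chil3 encode the secreted proteins RELMα and Ym1. Mrc1 (the mannose receptor CD206), Clec10a and Mgl2 encode C-type lectins that bind sugars, and Pdcd1lg2 encodes PD-L2, a ligand of the receptor PD-1.

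Peak height is given below as the deposited peak score, taken to be the MACS2 q-value on a −log10 scale, which measures the evidence for a peak over the background of its own library. Height and peak number both grow with sequencing depth, and the depth is unknown because the files hold no reads. The control libraries held 45250 and 41885 peaks, and the IL-4 libraries 41978 and 39462. Over regions with a peak in all 4 libraries, the median height was 12.52 and 11.01 in control and 11.14 and 8.86 after IL-4, so IL-4 replicate 2 stood lowest. To set libraries side by side, the height was also turned into its percentile among the regions of its own library, with 0 where no peak was called. The labelled cell type was checked on 8 macrophage marker genes, all of which had a region and 5 of which had a promoter peak in all 4 libraries. None of 3 B cell markers had a region, and 1 of 3 T cell, 2 of 3 neutrophil, 2 of 3 erythroid, 1 of 3 fibroblast and 2 of 3 mast cell markers had one; their part in the results was not tested.

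Of the 39 regions, 3 had a peak in both IL-4 libraries and in no control library, here called IL-4-only regions. These 3 were 7.69% of the regions of the 8 genes, against 2.53% of all 60710 regions. They lay 773 bp and 25433 bp upstream of the Arg1 transcription start site (TSS) and 8707 bp downstream of the Pdcd1lg2 TSS. Their sequences are shown because their peaks were called after IL-4 alone, although those of Arg1 −25433 were among the lowest of their libraries. They are taken from the GRCm38.p6 assembly, which underlies the mm10 build of the files, and are written on the plus strand. Capitals mark matches to TTCNNNNGAA, the STAT6 spacing, whose reverse complement is the same pattern.
Arg1 −773, chr10:24928104-24928302: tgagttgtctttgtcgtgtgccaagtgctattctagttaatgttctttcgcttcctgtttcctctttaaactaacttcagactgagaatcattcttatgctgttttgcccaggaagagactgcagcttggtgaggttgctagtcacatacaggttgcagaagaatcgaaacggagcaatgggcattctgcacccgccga
Arg1 −25433, chr10:24952763-24952952: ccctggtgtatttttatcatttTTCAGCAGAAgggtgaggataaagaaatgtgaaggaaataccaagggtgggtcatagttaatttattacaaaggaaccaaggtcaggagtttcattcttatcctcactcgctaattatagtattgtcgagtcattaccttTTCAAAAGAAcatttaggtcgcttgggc
Pdcd1lg2 +8707, chr19:29419508-29419745: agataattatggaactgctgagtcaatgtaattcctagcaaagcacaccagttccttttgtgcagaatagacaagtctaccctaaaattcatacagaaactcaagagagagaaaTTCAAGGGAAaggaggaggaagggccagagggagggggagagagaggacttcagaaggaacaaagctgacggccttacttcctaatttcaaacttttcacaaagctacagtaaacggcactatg

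Arg1 −773 held no match, Arg1 −25433 held 2 and Pdcd1lg2 +8707 held 1. In all, 11 of the 39 regions (28.2%) held a match with the STAT6 spacing, against 4386 of all 60710 regions (7.22%). The mean share among all regions within 20% of each region's length was 7.12% over the 39 regions. A further 4 regions with a match were higher, by percentile, in both IL-4 libraries than in either control library. Their sequences are shown, up to 120 bases around the match, for comparison with the IL-4-only regions.
Mrc1 −24882, chr2:14204634-14204753: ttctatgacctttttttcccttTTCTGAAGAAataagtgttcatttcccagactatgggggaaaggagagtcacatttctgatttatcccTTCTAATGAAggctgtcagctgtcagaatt
Tgm2 −7787, chr2:158154149-158154268: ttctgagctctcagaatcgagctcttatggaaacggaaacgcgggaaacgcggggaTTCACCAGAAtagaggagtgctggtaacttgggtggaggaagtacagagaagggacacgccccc
Mgl2 −15613, chr11:70114580-70114699: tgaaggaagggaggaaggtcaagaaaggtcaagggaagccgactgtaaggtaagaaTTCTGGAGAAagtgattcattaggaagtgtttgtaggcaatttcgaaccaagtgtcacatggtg
Mrc1 +2200, chr2:14231567-14231686: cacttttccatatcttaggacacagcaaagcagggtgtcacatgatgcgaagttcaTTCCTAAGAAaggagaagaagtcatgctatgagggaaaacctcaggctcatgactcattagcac

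The remaining 5 regions with a match are given last, because their heights overlapped between the groups or a peak was called in 1 library alone.
Arg1 −2948, chr10:24930249-24930368: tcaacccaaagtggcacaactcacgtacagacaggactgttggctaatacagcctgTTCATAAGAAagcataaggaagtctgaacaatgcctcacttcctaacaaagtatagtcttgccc
Tgm2 +15488, chr2:158130799-158130918: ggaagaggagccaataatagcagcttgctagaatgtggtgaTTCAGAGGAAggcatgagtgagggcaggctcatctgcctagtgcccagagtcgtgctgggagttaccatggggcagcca
Mgl2 −1106, chr11:70129193-70129312: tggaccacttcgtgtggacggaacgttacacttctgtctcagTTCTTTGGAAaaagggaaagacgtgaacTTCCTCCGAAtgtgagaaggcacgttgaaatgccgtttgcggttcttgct
Arg1 −413, chr10:24927832-24927935: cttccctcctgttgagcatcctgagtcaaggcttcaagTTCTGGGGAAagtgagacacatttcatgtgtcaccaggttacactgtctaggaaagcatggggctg
Pdcd1lg2 +31797, chr19:29442662-29442771: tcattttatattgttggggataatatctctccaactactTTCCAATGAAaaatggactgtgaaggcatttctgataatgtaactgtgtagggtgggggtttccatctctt

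The 3-base spacing TTCNNNGAA, used by other STAT proteins and searched for comparison, was found in 3 of the 39 regions (7.69%) against 6.90% of all regions. TGACTCA, the AP-1 element, was found on either strand in 17.95% of the 39 regions and in 18.10% of all. TTGCNNAA, a C/EBP core, was found in 12.82% against 12.07%, and GAGGAAGT, a PU.1 element, in 17.95% against 9.87%. Only 1 of the matches with the STAT6 spacing overlapped another searched motif, a PU.1 element within Mgl2 −1106. Of the searched motifs the STAT6 spacing thus differed most in share between the 39 regions and all regions. The shares describe letters in these windows. The paper measured STAT6 binding by ChIP-seq, which was not used here.

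All 11 regions with a match had a higher mean percentile in the IL-4 libraries than in the control libraries, whereas 11 of the 28 without a match did. Of those with a match, Arg1 −413, Arg1 −25433, Mgl2 −1106, Pdcd1lg2 +8707 and Pdcd1lg2 +31797 had no peak in control. Their control percentile was set to 0, so a higher mean after IL-4 was fixed in advance for them. Among all regions, 67.1% of those with a match and 41.7% of those without had the higher mean percentile after IL-4. The median difference in percentile, IL-4 minus control, was 24.9 over the 11 regions and −2.5 over the 28, against 6.5 and −2.4 over all regions with and without a match. Regions without a control peak enter these shares and medians, also among all regions. With that limit, the direction was the same as over all regions with a match. The median of 24.9 is the value of Mgl2 −1106, called in IL-4 replicate 2 alone with control set to 0. It therefore cannot show a larger difference than over all regions with a match. Whether the 8 genes differ from the rest was not tested.

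**Figure D1:**
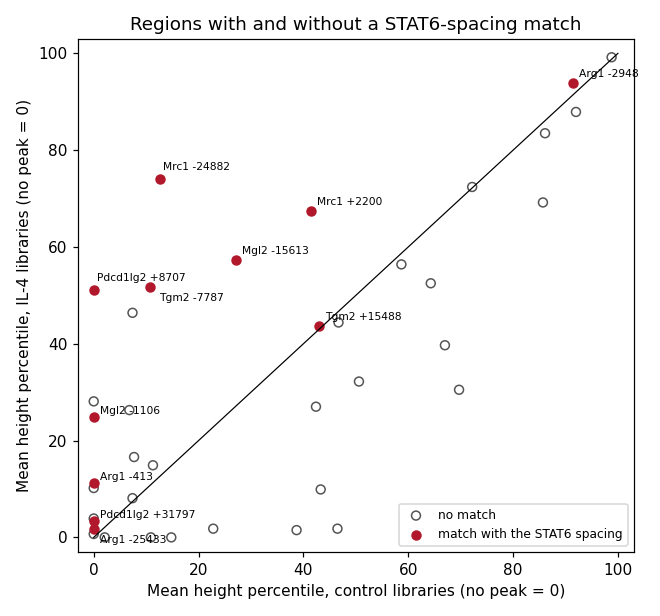
Mean percentile of peak height in the control libraries (x axis) and in the IL-4 libraries (y axis) for the 39 regions, with 0 for a library without a peak. Points at 0 on the x axis had no control peak and could not lie below the line. Filled points hold a match with the STAT6 spacing and are named by gene and distance from the TSS in bp; all 11 lie above the line of equal percentiles, 4 of them (Arg1 −25433, Arg1 −2948, Pdcd1lg2 +31797 and Tgm2 +15488) only narrowly.

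The ranges of percentiles of the 2 groups did not overlap in 16 of the 39 regions. The IL-4 libraries were higher in 8 (20.5%), against 11.0% of all regions, and the control libraries were higher in 8 (20.5%), against 17.4% of all regions. The regions higher after IL-4 were Arg1 −773, Arg1 −25433, Mgl2 −15613, Mrc1 −24882, Mrc1 +2200, Pdcd1lg2 +8707, Pdcd1lg2 +20281 and Tgm2 −7787, and 6 of these 8 held a match. The regions higher in control were Arg1 +16063, Mrc1 −22367, Mrc1 −18466, Mrc1 +4733, Pdcd1lg2 +19786, Tgm2 +24657, Tgm2 +9879 and Tgm2 +1969, none of which held a match. Among all regions, 20.0% of those higher in both IL-4 libraries and 4.26% of those higher in both control libraries held one. On raw heights the counts were 7 and 9 of the 39, against 7.62% and 20.7% of all regions. There Mrc1 +2200 overlapped and Mrc1 +15373 was separated toward control. Without control replicate 1 the percentile counts became 14 and 13, and without control replicate 2 they were 8 and 12. Without IL-4 replicate 1 they became 13 and 14, and without IL-4 replicate 2 they became 17 and 9. With a library left out fewer values have to be apart, so separation is easier. The shares over all regions were not computed for these counts.

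**Figure D2:**
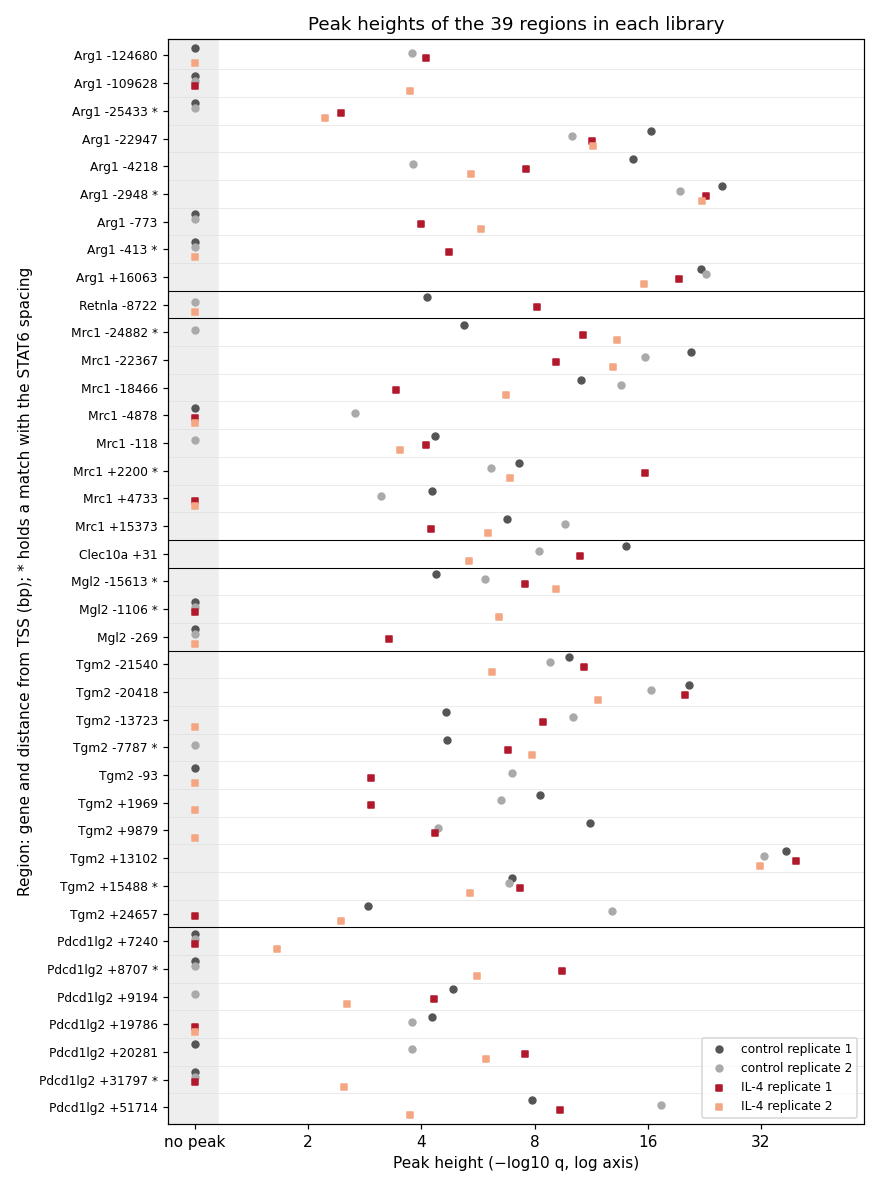
Peak height (−log10 q, log axis) of each of the 39 regions in each of the 4 libraries, grouped by gene and ordered by distance from the TSS in bp; the grey band on the left holds libraries without a peak. Asterisks mark a match with the STAT6 spacing. IL-4 squares stand to the right of both control circles in regions such as Mgl2 −15613 and Mrc1 −24882 and to the left of them in Mrc1 −22367 and Mrc1 −18466.

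Among the enzymes, Arg1 (chromosome 10, minus strand) had 9 regions, and 4 and 5 of these had a peak in control and 8 and 7 after IL-4. Near the promoter, Arg1 −773 (chr10:24928104-24928302) had no peak in either control library and heights of 3.98 and 5.77 after IL-4. Arg1 −413 (chr10:24927832-24927935), the region nearest the TSS, had a peak of 4.73 in IL-4 replicate 1 and none in the other 3 libraries. Both are annotated as promoter. The Arg1 promoter thus carried no called peak in control cells, whereas each IL-4 library had at least 1. These promoter peaks were low, at percentiles of 12.9 and 43.4 for Arg1 −773 and 22.4 for Arg1 −413. Arg1 −25433 (chr10:24952763-24952952, intergenic) had no peak in control and heights of 2.45 and 2.22 after IL-4. Those are among the lowest peaks of their libraries, at percentiles of 1.7 and 1.8.

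The stronger Arg1 regions had a peak before IL-4 was added. Arg1 −2948 (chr10:24930180-24930607, intergenic), the highest region of the gene, measured 25.16 and 19.46 in control and 22.81 and 22.29 after IL-4. The groups overlapped. A STAT6-dependent enhancer a few kilobases upstream of Arg1 is known from earlier work, and this region held 1 match as well as 1 C/EBP core. Arg1 +16063 (chr10:24911232-24911665), which lies beyond the 3′ end of Arg1 in intron 28 of the neighbouring gene Med23, measured 22.21 and 22.86 in control and 19.35 and 15.67 after IL-4, both lower. Arg1 −22947 measured 16.35 and 10.07 against 11.35 and 11.46, and Arg1 −4218 measured 14.59 and 3.79 against 7.58 and 5.43; in both, the control values enclosed the IL-4 values. The 2 regions more than 100 kb away, Arg1 −109628 and Arg1 −124680, had peaks of 3.73 to 4.11 in 1 and 2 libraries.

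Tgm2 (chromosome 2, minus strand) had 10 regions, the most of the 8 genes, of which 9 and 9 had a peak in control and 9 and 6 after IL-4. Its intron 4 held the highest region of all 39, Tgm2 +13102 (chr2:158133022-158133484), at 37.43 and 32.67 in control and 39.64 and 31.82 after IL-4, and the groups overlapped. Tgm2 −7787 (chr2:158154058-158154309, intergenic) had 4.69 and no peak in control and 6.81 and 7.86 after IL-4. This was the Tgm2 region with higher values in both IL-4 libraries, and it held a match. The opposite order was seen in introns 1 and 3, where Tgm2 +1969 measured 8.27 and 6.53 in control, 2.93 in IL-4 replicate 1 and none in IL-4 replicate 2. Tgm2 +9879 measured 11.25 and 4.42 in control, 4.36 in IL-4 replicate 1 and none in IL-4 replicate 2. Tgm2 +24657 in intron 10 had 2.88 and 12.82 in control and no peak and 2.44 after IL-4. The promoter region Tgm2 −93 reached 6.98 in control replicate 2 and 2.93 in IL-4 replicate 1, with nothing called elsewhere. Tgm2 +15488 (intron 6, with a match) lay between 5.39 and 7.33 in the 4 libraries, Tgm2 −20418 between 11.78 and 20.57, Tgm2 −21540 between 6.18 and 10.81, and Tgm2 −13723 between 4.64 and 10.13 in 3 libraries. IL-4 replicate 2 lacked a peak in 4 Tgm2 regions that had one in IL-4 replicate 1. Its heights were the lowest of the 4 libraries over all regions, and the part of this in the Tgm2 values was not tested.

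For the secreted proteins little called accessibility was found. Retnla had 1 region, 8722 bp upstream of its TSS (chr16:48833736-48833937, intergenic), with 4.15 in control replicate 1 and 8.12 in IL-4 replicate 1 and no peak in either second replicate, so the groups did not differ in number. No region lay within 1 kb of the Retnla TSS. Chil3 had none under that symbol. The region nearest to its TSS, whatever its name, lay 41.4 kb away and carried the name of Chil4 (listed as Chi3l4). Chil4 is a close paralogue whose near-identical sequence can make reads hard to place. Of the 5 members whose promoter was found in the RefSeq promoter sequences of GRCm38.p6 (Retnla, Chil3, Mrc1, Mgl2 and Pdcd1lg2; 250 bases before to 50 after the TSS), Retnla and Pdcd1lg2 held a match with the STAT6 spacing there, against 6.98% of 32544 promoters. Neither of these promoters had a called peak in any library.

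Among the lectin receptors, Mrc1 (chromosome 2, plus strand) had 8 regions, of which 7 and 6 had a peak in control and 6 and 6 after IL-4. The 3 regions in intron 3 of the upstream gene Tmem236 differed in direction. Mrc1 −24882 (chr2:14204389-14204808) had 5.20 and no peak in control and 10.78 and 13.25 after IL-4, and its percentile difference of 61.4 was the largest of the 39 regions. It held 2 matches with the STAT6 spacing and 1 with the 3-base spacing. Mrc1 −22367 (chr2:14206803-14207255), the highest Mrc1 region, measured 20.88 and 15.73 in control and 9.10 and 12.96 after IL-4. Mrc1 −18466 (chr2:14210784-14211012) measured 10.64 and 13.60 in control and 3.43 and 6.72 after IL-4. In both of these the IL-4 values lay under the control values, and neither held a match.

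Within Mrc1 itself, the promoter region Mrc1 −118 (chr2:14229237-14229491) had a peak of 4.36 in control replicate 1, none in control replicate 2, and 4.12 and 3.52 after IL-4, so the groups overlapped. Intron 1 held Mrc1 +2200 (chr2:14231487-14231755) at 7.26 and 6.14 in control and 15.74 and 6.87 after IL-4. By percentile, both IL-4 libraries (81.6 and 53.3) were above both control libraries (44.5 and 38.3), while the raw heights overlapped. The same intron held Mrc1 +4733 (chr2:14234097-14234255), found in both control libraries at 4.27 and 3.13 and in no IL-4 library. Mrc1 +15373 in intron 3 measured 6.74 and 9.65 against 4.24 and 6.01, and Mrc1 −4878 had a peak of 2.66 in control replicate 2 alone. The Mrc1 gene body also held 6 regions that the files assign to the intronic microRNA gene Mir511 and that the naming rule therefore left out. Of these, 1 was found in both IL-4 libraries alone, at 10.31 and 2.88 (chr2:14323278-14323483, intron 25), and 1 in both control libraries alone, at 4.06 and 5.91 (chr2:14262197-14262406, intron 6).

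Mgl2 and Clec10a are neighbouring lectin genes on chromosome 11. Mgl2 had 3 regions, of which 1 and 1 had a peak in control and 2 and 2 after IL-4. Mgl2 −15613 (chr11:70114474-70114875, intergenic) measured 4.38 and 5.91 in control and 7.57 and 9.14 after IL-4, higher in both. Its match lies 162 bases from the region start. Mgl2 −1106 (chr11:70129173-70129330), with 2 matches, had a peak of 6.43 in IL-4 replicate 2, and the promoter region Mgl2 −269 had a peak of 3.29 in IL-4 replicate 1. Each was called in no other library, so the second Mgl2 peak was a different one in each IL-4 library. Clec10a had 1 region, Clec10a +31 (chr11:70166346-70166832) at its promoter, which measured 13.99 and 8.24 in control and 10.59 and 5.37 after IL-4. The groups overlapped, and the region held a match with the 3-base spacing and none with the STAT6 spacing.

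Pdcd1lg2 (chromosome 19, plus strand) had 7 regions, all in introns, of which 3 and 3 had a peak in control and 4 and 6 after IL-4. Pdcd1lg2 +8707 (chr19:29419508-29419745) in intron 1 had no peak in control and 9.47 and 5.64 after IL-4, percentiles of 59.9 and 42.3. It was the highest IL-4-only region of the 8 genes in IL-4 replicate 1. Pdcd1lg2 +20281 (chr19:29431082-29431280) in intron 2 had no peak and 3.78 in control and 7.57 and 5.95 after IL-4. In the same intron, Pdcd1lg2 +19786 (chr19:29430601-29430809) had 4.28 and 3.78 in control and no peak after IL-4. This region and Mrc1 +4733 were the 2 control-only regions, 5.13% of the 39 against 4.33% of all regions. Pdcd1lg2 +51714, the highest region of the gene, ranged from 3.73 to 17.40 with overlapping groups. Pdcd1lg2 +9194 had peaks of 2.54 to 4.86 in 3 libraries, and Pdcd1lg2 +7240 and Pdcd1lg2 +31797 had peaks of 1.65 and 2.49 in IL-4 replicate 2 alone.

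**Figure D3:**
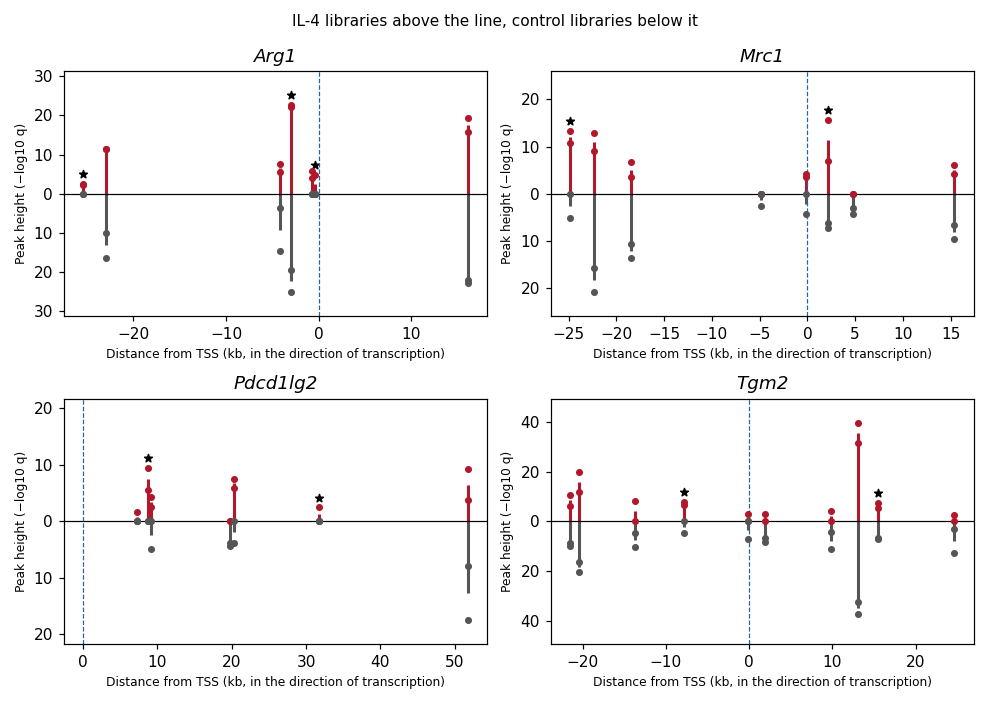
Peak height (−log10 q) against distance from the TSS in kb for regions of Arg1, Mrc1, Tgm2 and Pdcd1lg2 within 60 kb, IL-4 above and control below the line. Bars are the mean of 2 libraries with a missing peak as 0, points are the libraries, stars mark a match with the STAT6 spacing and the dashed line is the TSS; the Arg1 promoter bars point only to the IL-4 side.

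Counted over the 8 genes, there were 26 and 25 peaks in control (25.5 ± 0.71, SD, n = 2) and 31 and 29 after IL-4 (30.0 ± 1.41, SD, n = 2). In total number of peaks, both IL-4 libraries were below control replicate 1, and IL-4 replicate 2 was below either control library. IL-4 replicate 1, at 41978, was slightly above control replicate 2, at 41885. The difference over the 8 genes was 4.5 peaks, and the part of sequencing depth in it was not tested. A two-sided exact permutation test over the 4 libraries gave p = 0.3333, the smallest that 2 against 2 libraries can give. With only peaks above the pooled median height of 7.37 the difference was 0.0. The count of 3 IL-4-only regions became 7 without control replicate 1, 7 without IL-4 replicate 1 and 5 without IL-4 replicate 2, where a region needs fewer libraries to qualify. The count of 2 control-only regions became 5 without IL-4 replicate 1.

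Changes in height were tested with limma on the 25442 regions that all 4 libraries shared, after quantile normalisation of log2 heights and with Benjamini-Hochberg adjustment over all of them. Of the 39 regions 15 could be tested, from 6 of the 8 genes, and the other 24 lacked a peak in at least 1 library. None passed an adjusted p of 0.05 in either direction, and 1 had an unadjusted p under 0.05. Over all regions tested the threshold was passed by 4 (0.0157%) that were higher and 2 (0.00786%) that were lower after IL-4, and 8.28% had an unadjusted p under 0.05. The log2 changes of the 15 regions ran from −1.08 to 0.93 with a median of −0.02, beside a median of −0.0006 over all regions tested. Of the 15, 7 were above 0 and 8 below, and their standard errors ran from 0.20 to 0.54.

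On this normalised log2 scale Mgl2 −15613 had the highest value, a difference of 0.93 ± 0.53 (SE, limma adjusted p = 0.665). Mrc1 +2200 followed at 0.89 ± 0.49 (SE, limma adjusted p = 0.647). Mrc1 −18466 had the lowest, −1.08 ± 0.52 (SE, limma adjusted p = 0.584), with the unadjusted p of 0.0421. Pdcd1lg2 +51714 stood at −0.74 ± 0.51 and Mrc1 −22367 at −0.54 ± 0.37. Clec10a +31 stood at −0.27 ± 0.48, Arg1 −2948 at 0.19 ± 0.27, Arg1 +16063 at −0.18 ± 0.29, Tgm2 +15488 at 0.12 ± 0.52 and Tgm2 +13102 at 0.11 ± 0.20, each within about 1 standard error of 0. The 4 tested regions with a match with the STAT6 spacing were all above 0, with a median of 0.54, except that Tgm2 +15488 was at −0.13 without normalisation, and 3 of the 11 without a match were above 0, with a median of −0.18. Over all 2269 tested regions with a match the median was 0.18 and 64.0% were above 0, against −0.02 and 48.5% without.

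**Figure D4:**
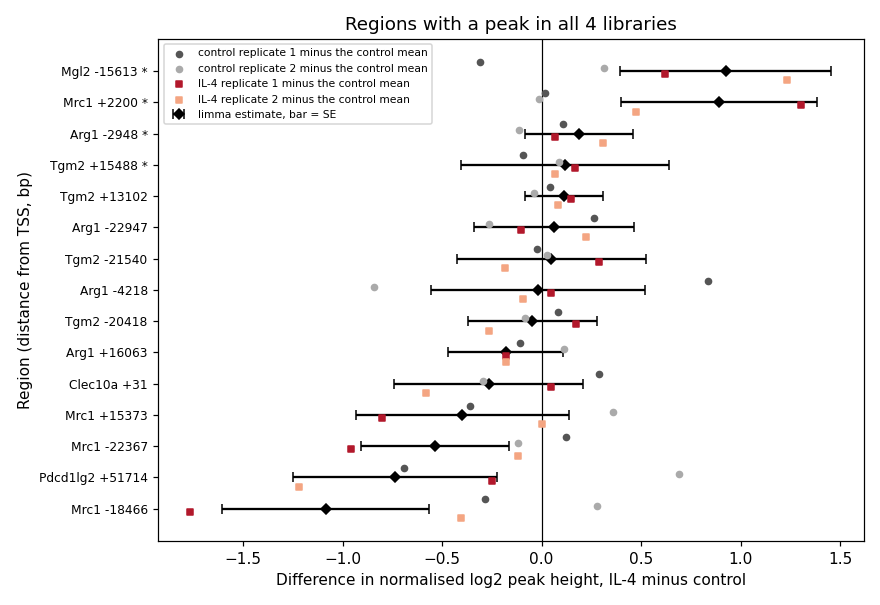
Difference in normalised log2 peak height, IL-4 minus control, for the 15 regions shared by all 4 libraries (diamonds, limma estimate, bars SE). Circles and squares show each control and IL-4 library as its difference from the control mean; regions with an asterisk hold a match with the STAT6 spacing, and Mgl2 −15613 and Mrc1 +2200 among them stand well to the right while Arg1 −2948 and Tgm2 +15488 lie within 1 SE of 0.

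When a missing peak was set to the lowest height of its library, so that regions found in at least 2 libraries could be fitted, no region of the genome passed the threshold. In that fit 32 of the 39 regions were fitted, with a median of 0.044. The highest were Pdcd1lg2 +8707 at 2.62 (unadjusted p = 0.00951, limma adjusted p = 0.389), Mrc1 −24882 at 2.47 and Arg1 −773 at 1.95. The lowest were Tgm2 +1969 at −1.89 (unadjusted p = 0.0434, limma adjusted p = 0.435), Tgm2 +9879 at −1.47 and Pdcd1lg2 +19786 at −1.30. These values and their p-values depend on the height put in place of a missing peak, and the values are not bounds. Pdcd1lg2 +8707 and Arg1 −773 had no peak in control, and Pdcd1lg2 +19786 had none after IL-4. For these the direction followed from the filled-in heights, and the spread within the filled-in group was not measured.

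A list of 20 other genes of the IL-4 response, among them Il4ra (the receptor chain), Socs1 and Cish (feedback inhibitors), Pparg and Tfec, gave 176 regions from 19 genes. No region of the list passed the limma threshold in either direction among its 73 tested regions. Of its regions, 8 were IL-4-only (2.53% over all regions) and 5 were control-only (4.33% over all regions). The 5 were 4 Klf4 regions and 1 Kdm6b region. The 8 carried the names of Tfec (3), Pparg (2), Cdh1, Kdm6b and Klf4 (1 each). Those of Kdm6b and Klf4 lay 15919 bp and 34838 bp upstream of the TSS. The 8 included the promoter of Tfec, a transcription factor of the MiT family, at 18.78 and 4.05. They also included 1 of the 2 promoter regions of Pparg, a lipid-activated nuclear receptor, at 5.67 and 5.95, while the other Pparg promoter region had a peak of 5.12 in control replicate 1. A match with the STAT6 spacing was held by 24 of the 176 regions (13.6%), against 7.22% of all regions. The percentiles were higher in both IL-4 libraries in 33 of the 176 (18.8%, against 11.0% of all regions) and higher in both control libraries in 29 (16.5%, against 17.4%). The paralogues and neighbours of the 8 genes had 27 regions, of which 2 were control-only, none was IL-4-only and 7.41% held a match. The 2 carried the names of Cd274 and Retn. The percentiles were higher in both IL-4 libraries in 1 of the 27 (3.7%) and in both control libraries in 5 (18.5%).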

How the data were processed

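ATAC-seq peaks of 4 libraries were analysed, 2 control and 2 IL-4, grouped by the labels. The authors aligned reads to mm10, called peaks in each library separately and annotated them, with BWA 0.7.10, SAMtools 0.1.19, MACS2 2.0.10 and HOMER 4.2 per the submitters' processing notes. No handling of Tn5 offsets or duplicates is given in the sources used here. The deposited peak score was read as −log10 of the q-value from its lowest value of 1.3 and its steps. The methods name a q cut-off of 0.01, yet 133 to 603 peaks per library scored under 2. DiffBind needs reads and was not run.

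Peaks overlapping by 1 bp were merged. Heights were tested with limma 3.58.1 (R 4.3.3, lmFit, eBayes with a trend). On simulated heights, 193 of 200 planted changes were recovered with 12 false calls over 25442 regions. The planted changes were larger than that of any tested region of the 8 genes, and recovery of changes as small as those was not tested. Motifs were read from GRCm38.p6 with pysam 0.24.0, on both strands. The 8 genes, the gene lists and the motifs were chosen with earlier results of these data known. The text names in full, for each gene, the region nearest the TSS, the highest region, group-specific regions, the largest change among shared regions, and separated regions with a match with the STAT6 spacing. Percentiles were added after the heights were seen. The alternatives tried are in the closing section.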

Additional observations from a re-analysis of the deposited data

How the results depend on the processing

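No tested region of the 8 genes passed the limma threshold under median centring, no normalisation, no trend, a replicate block, peaks of height 2 or more, or with any 1 library left out (15 regions each). None passed with merging within 500 bp (16 regions) or with missing peaks set to the lowest height (32 regions). The median change of −0.018 stayed within the spread between replicates under every alternative fitted; without normalisation it was −0.213, where the median of all regions was −0.211. Over all regions the 4 higher and 2 lower calls became 6 and 2 under median centring, 0 and 3 without normalisation, 11 and 3 with the replicate block, 6 and 0 without control replicate 1, 12 and 0 without control replicate 2, and 0 and 0 with no trend, with missing peaks set to the lowest height or without either IL-4 library. Heights of same-numbered libraries did not deviate together (r = 0.0068 between their deviations over 25442 regions). This cannot show whether those libraries share an animal or day. With the replicate block 0 regions of the 8 genes were called and the peak difference stayed 4.5. The difference in peaks was 0.0 with only peaks above the pooled median height. IL-4-only regions numbered 8 when a peak in 1 control library was tolerated, 2 with merging within 500 bp, 2 with only peaks above the pooled median and 4 to 7 when a library was left out, and control-only regions 6 when a peak in 1 IL-4 library was tolerated, 1 with merging within 500 bp, 1 with only peaks above the pooled median and 2 to 5 when a library was left out. Regions higher by percentile in both IL-4 libraries numbered 8 to 17 and in both control libraries 9 to 14 when a library was left out. Fewer values then have to be apart, and the shares over all regions were not computed. On raw heights the counts were 7 and 9, against 7.62% and 20.7% of all regions. These last counts and the count of matches in 200 bp windows (12 in place of 11) were chosen after seeing the data. Of 110 recomputed changes in 10 named regions, 107 kept their direction. The others were Clec10a +31, which ran from −0.57 to 0.04 as 1 library was left out (0.03 without control replicate 1, 0.04 without IL-4 replicate 2), and Tgm2 +15488, at −0.13 with no normalisation; the cause was not tested. With 2 libraries per group and no reads, absence of a called peak does not show closed chromatin.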
